A study of Mus musculus with 24 samples.

Results

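The loss of Perk in neurons under endoplasmic reticulum (ER) stress was read from 6 of the study's 24 RNA sequencing libraries, 3 of Perk KO neurons and 3 of WT neurons, all treated with tunicamycin (TM). Membership followed the sample titles, and every gene of the deposited tables entered the comparison. All cells, WT included, came from PerkloxP/loxP mice, in which the Perk gene (Eif2ak3) is flanked by loxP sites, and all were transduced with a lentivirus. In the KO cells the virus carried active Cre recombinase, which deletes the flanked part, and in the WT cells an inactive ΔCre. Primary neurons grew in neurobasal medium with B-27 and were given TM (5 µg/mL) on day in vitro 14, for 24 hours. The study's design text gives the treatment as 20 to 24 hours. Control groups received DMSO. The labels name no cell type to which Cre was restricted and no age of the animals. The titles call the libraries biological replicates but do not say whether they were separate cultures or animals. P-values therefore reflect how far these libraries spread, and that spread may be technical.

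TM blocks the first step of N-linked glycosylation, so that newly made glycoproteins misfold in the ER. A trio of sensors in the ER membrane answers: PERK phosphorylates the translation factor eIF2α, which lowers general protein synthesis but favours translation of the transcription factor ATF4; IRE1 splices the mRNA of Xbp1; and ATF6 is cut to release a transcription factor. ATF4 drives genes of amino acid supply and CHOP (Ddit3), the eIF2α branch also called the integrated stress response, whereas ATF6 and XBP1 mainly drive ER chaperones and ER-associated degradation. In neurons PERK signalling is studied for its part in synaptic protein synthesis and in neurodegeneration.

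Levels are given as CPM, read counts scaled to library size with TMM factors over the 12 neuron libraries. Differences are log2 values of Perk KO against WT ± standard error, 3 against 3 libraries, so that a negative value is lower in Perk KO. A gene was tested if it had a mean of at least 10 counts in the libraries compared, and is called higher or lower if its adjusted p-value in edgeR's quasi-likelihood test was under 0.05. The libraries held 16 to 25.9 M counts, and those of this comparison 17.2 to 25.9 M. Transcripts of mitochondrial DNA took 2.89% to 4.38% of the counts in WT and 3.63% to 5.98% in Perk KO neurons with TM. Binomial and Poisson intervals are not given, because reads amplified by PCR are not independent molecules.

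Eif2ak3 (ENSMUSG00000031668, GRCm38 chromosome 6 from 70844515 to 70905245) stood at 140, 134 and 148 CPM in the WT libraries and at 9.53, 11.9 and 15.9 CPM in the Perk KO libraries. The groups did not overlap, and 8.84% of the WT mean was left (log2 difference -3.44 ± 0.18, adjusted p = 1.86e-05). Of 16026 genes tested, 6427 (40.1%) were called, 3314 higher (20.7%) and 3113 lower (19.4%). The median difference over all genes was 0.02. Differences over 2-fold were called higher in 1840 genes (11.5%) and lower in 742 (4.63%). The 3 and 3 libraries did not overlap in 8741 genes (54.5%). The authors' deposited table of the same comparison called 6395 genes, 3421 higher and 2974 lower. These shares of all genes are the background for each gene group below.

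The neuron label was checked against markers of neurons and of the other cells that such a culture can hold. The pan-neuronal markers, 15 in all, were all detected, and their summed level was 4080 to 4412 CPM in WT against 4148 to 4371 CPM in Perk KO libraries with TM, so that the groups overlapped. Tubb3, a neuronal tubulin, was at 375, 334 and 371 CPM in WT against 342, 284 and 340 CPM in Perk KO (-0.10 ± 0.12, adjusted p = 0.543), and Map2, a dendritic microtubule protein, gave 0.51 ± 0.31 (adjusted p = 0.229). Rbfox3, which encodes the nuclear antigen NeuN, was called lower (-0.39 ± 0.09, adjusted p = 0.0122). It was not called without WT replicate 1 (adjusted p = 0.0642) or Perk KO replicate 3 (0.0592). Of the 3 markers called lower, Nefh fell most (-1.05 ± 0.16). In control cultures the neuron sums did not overlap, at 7645 to 7988 CPM in WT against 6148 to 6833 CPM in Perk KO. There 8 of 15 markers were lower and 1 higher, against 9.16% and 12.2% of all genes.

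Astrocyte markers were also present and differed by genotype. Their summed level was 1573 to 1726 CPM in WT against 6223 to 7732 CPM in Perk KO neurons with TM, against 4895 to 5368 CPM in WT against 6540 to 6724 CPM in Perk KO control cultures. With TM, 19 of the 20 markers were called higher and 0 lower, with a median difference of 2.04. Aqp4, a water channel of astrocyte endfeet, was at 13.5, 14 and 8.06 CPM in WT against at 263, 473 and 294 CPM in Perk KO (4.91 ± 0.29, adjusted p = 2.27e-05). Glul, the glutamine synthetase, was at 103, 95.3 and 102 CPM in WT against at 1243, 933 and 1013 CPM in Perk KO (3.48 ± 0.15, adjusted p = 1.8e-05). In both genes each Perk KO library lay far above each WT library. The glutamate transporter Slc1a3 (1.46 ± 0.12), the intermediate filament Gfap (1.77 ± 0.23) and the folate enzyme Aldh1l1 (2.88 ± 0.17) were higher as well, none with overlap. The shift was not particular to the neuron cultures. In Perk KO against WT astrocyte cultures with TM, 17 of 18 tested markers were higher and 0 lower (median 2.68). Of all genes, 32.1% were called higher there. The difference between the 2 cell types was called in 4 of 19 markers toward higher and 6 toward lower in neurons. In bulk libraries such as these, fewer cells of a type and less RNA per cell cannot be told apart.

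With TM, markers of rarer cells moved the same way at lower levels. Microglia markers summed to 36.7 to 47.4 CPM in WT against 82.8 to 122 CPM in Perk KO, with 9 of 11 tested called higher and 0 lower. C1qb, a complement subunit, was at 1.41, 0.879 and 0.961 CPM in WT against 11, 5.34 and 6.04 CPM in Perk KO (2.85 ± 0.37). Another 5 microglia markers (Cx3cr1, P2ry12, Tmem119, Trem2 and Itgam) were too low to test, with at most 28 counts in a library. Oligodendrocyte lineage markers summed to 135 to 182 CPM in WT against 320 to 375 CPM in Perk KO, with 6 of 10 tested called higher and 1 lower. The exception was the myelin gene Mog, at 4.47, 4.95 and 4.38 CPM in WT against 0.906, 0.89 and 0.393 CPM in Perk KO (-2.58 ± 0.33). Fibroblast, mural and endothelial markers summed to 162 to 193 CPM in WT against 319 to 329 CPM in Perk KO, with 7 of 14 called higher and 0 lower. In control cultures, 8 of 13 microglia markers (median 1.01) and 7 of 14 fibroblast, mural and endothelial markers (0.75) were higher in Perk KO. In both lists 0 were lower. Oligodendrocyte lineage markers went the other way there, with 1 of 14 higher and 5 lower (-0.45). Of all genes, 12.2% were higher and 9.16% lower without TM. No member of the neuron, astrocyte or mesenchymal lists was at 0 in all 3 WT libraries. The part of these shifts in the differences described below was not tested.

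**Figure D1:**
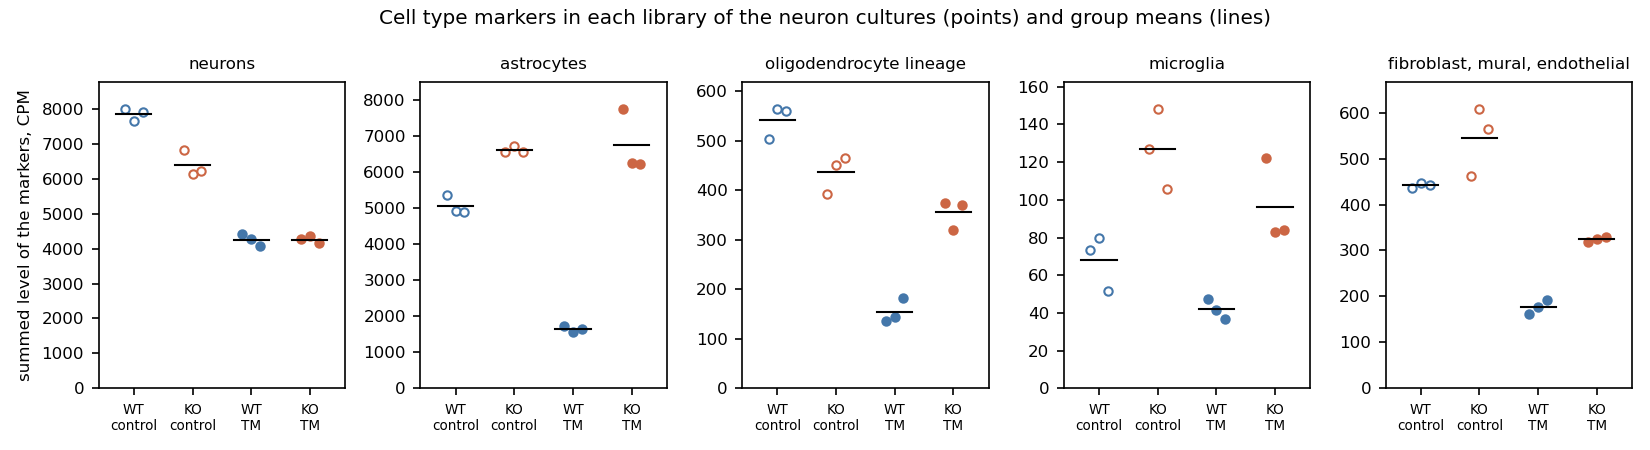
Summed level in CPM of the markers of 5 cell types (1 panel each) in every neuron library, by genotype and treatment, with points for libraries and lines for group means. With TM the astrocyte sum is 1573 to 1726 CPM in WT against 6223 to 7732 CPM in Perk KO, while the neuron sums of the 2 genotypes overlap.

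The first question of the design is how far the ATF4 branch depends on Perk in stressed neurons. Of 8 transcription factors of the integrated stress response, 5 were lower in Perk KO and 0 higher (median -0.68), and of 18 of its target genes 12 were lower and 0 higher (median -0.80). Atf4 itself was at 779, 704 and 747 CPM in WT against 408, 348 and 432 CPM in Perk KO. The groups did not overlap, and the difference was -0.85 ± 0.12 (adjusted p = 0.000976). Ddit3, which encodes the stress transcription factor CHOP, was at 1130, 1033 and 935 CPM in WT against 334, 257 and 278 CPM in Perk KO (-1.77 ± 0.14, adjusted p = 7.22e-05). Each Perk KO library was lower than each WT library, but all 3 remained above the control cultures, whose means were 46 CPM in WT against 37.3 CPM in Perk KO. Trib3, a pseudokinase induced by CHOP, was at 95.7, 80.6 and 87.4 CPM in WT against 18.7, 20.9 and 20 CPM (-2.09 ± 0.11, adjusted p = 1.86e-05). Chac1, which degrades glutathione, was lower by a similar measure (-1.72 ± 0.10), as were Nupr1, a chromatin-bound stress cofactor (-1.96 ± 0.10), and Ppp1r15a, which encodes the phosphatase subunit GADD34 that reverses eIF2α phosphorylation (-1.82 ± 0.10). Asns, the asparagine synthetase, fell less, from 597, 542 and 527 CPM to 329, 247 and 268 CPM (-0.92 ± 0.14, adjusted p = 0.0012).

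Secreted stress factors followed, with 8 of 10 tested lower, 0 higher and a median of -1.54. Gdf15, a circulating stress hormone, was at 66.6, 70.9 and 78.5 CPM in WT against 9.81, 11.5 and 12.2 CPM in Perk KO (-2.63 ± 0.13, adjusted p = 1.86e-05). The growth factor Vegfa was at 239, 239 and 237 CPM in WT against 92.9, 104 and 101 CPM in Perk KO (-1.20 ± 0.09, adjusted p = 4.67e-05). The peptide hormone gene Adm2 (-3.24 ± 0.25) was low in Perk KO, at 0.591, 0.612 and 0.491 CPM. No library of these genes crossed from one group into the other.

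Genes of amino acid supply were lower with few exceptions. Of 14 enzymes of amino acid synthesis and the folate cycle, 13 were lower (median -1.27), and of 12 amino acid transporters 9 were lower and 0 higher (median -0.67). Cth, the enzyme that makes cysteine from cystathionine, was at 82.5, 85.8 and 87.1 CPM in WT against 20, 17 and 19.9 CPM in Perk KO (-2.10 ± 0.12, adjusted p = 2.19e-05), against 10.7 CPM in both control groups. Shmt2, a mitochondrial enzyme of serine and folate metabolism, was at 345, 332 and 355 CPM against 104, 87.9 and 101 CPM (-1.76 ± 0.11, adjusted p = 2.83e-05). Pycr1 of proline synthesis (-1.74 ± 0.13) and the folate enzyme Mthfd2 (-1.45 ± 0.12) were lower too. The enzyme called higher was Cbs, which makes cystathionine (0.53 ± 0.17, adjusted p = 0.0342). It lost its call without WT replicate 2 (adjusted p = 0.12), WT replicate 3 (0.101), Perk KO replicate 1 (0.0586) or Perk KO replicate 3 (0.0687). Among transporters, the glycine carrier Slc6a9 (-1.40 ± 0.09), the glutamine carrier Slc1a5 (-1.26 ± 0.17) and the cationic amino acid carrier Slc7a1 (-1.07 ± 0.10) were lower.

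Aminoacyl-tRNA synthetases, which load amino acids onto tRNAs, were lower in 18 of 20 and higher in 0 (median -0.81). Tars, which loads threonine, was at 285, 272 and 269 CPM in WT against 109, 94.4 and 102 CPM in Perk KO (-1.37 ± 0.10, adjusted p = 5.23e-05), with control means of 83.5 and 80.7 CPM. Vars (-1.32 ± 0.10), Rars (-1.32 ± 0.11) and Iars (-1.26 ± 0.10), for valine, arginine and isoleucine, gave like values. The host genes of small nucleolar RNAs, whose spliced transcripts are usually degraded during translation, were lower in 10 of 12 and higher in 0 (median -1.21). Snhg12 was at 141, 129 and 124 CPM in WT against 21.8, 16.9 and 18.5 CPM in Perk KO (-2.72 ± 0.14, adjusted p = 1.8e-05), and Snhg17 (-2.65 ± 0.19), Snhg5 (-2.16 ± 0.14) and Snhg1 (-1.95 ± 0.14) stood near it. In each of these genes the WT libraries lay above all Perk KO libraries. Ribosomal protein genes differed less. Of 84 tested, 10 were lower and 0 higher, with a median of -0.31, and the count of lower genes was 38 with the replicate number as a block 1, 2 or 2 without WT replicate 1, 2 or 3, and 67, 4 or 1 without Perk KO replicate 1, 2 or 3.

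**Figure D2:**
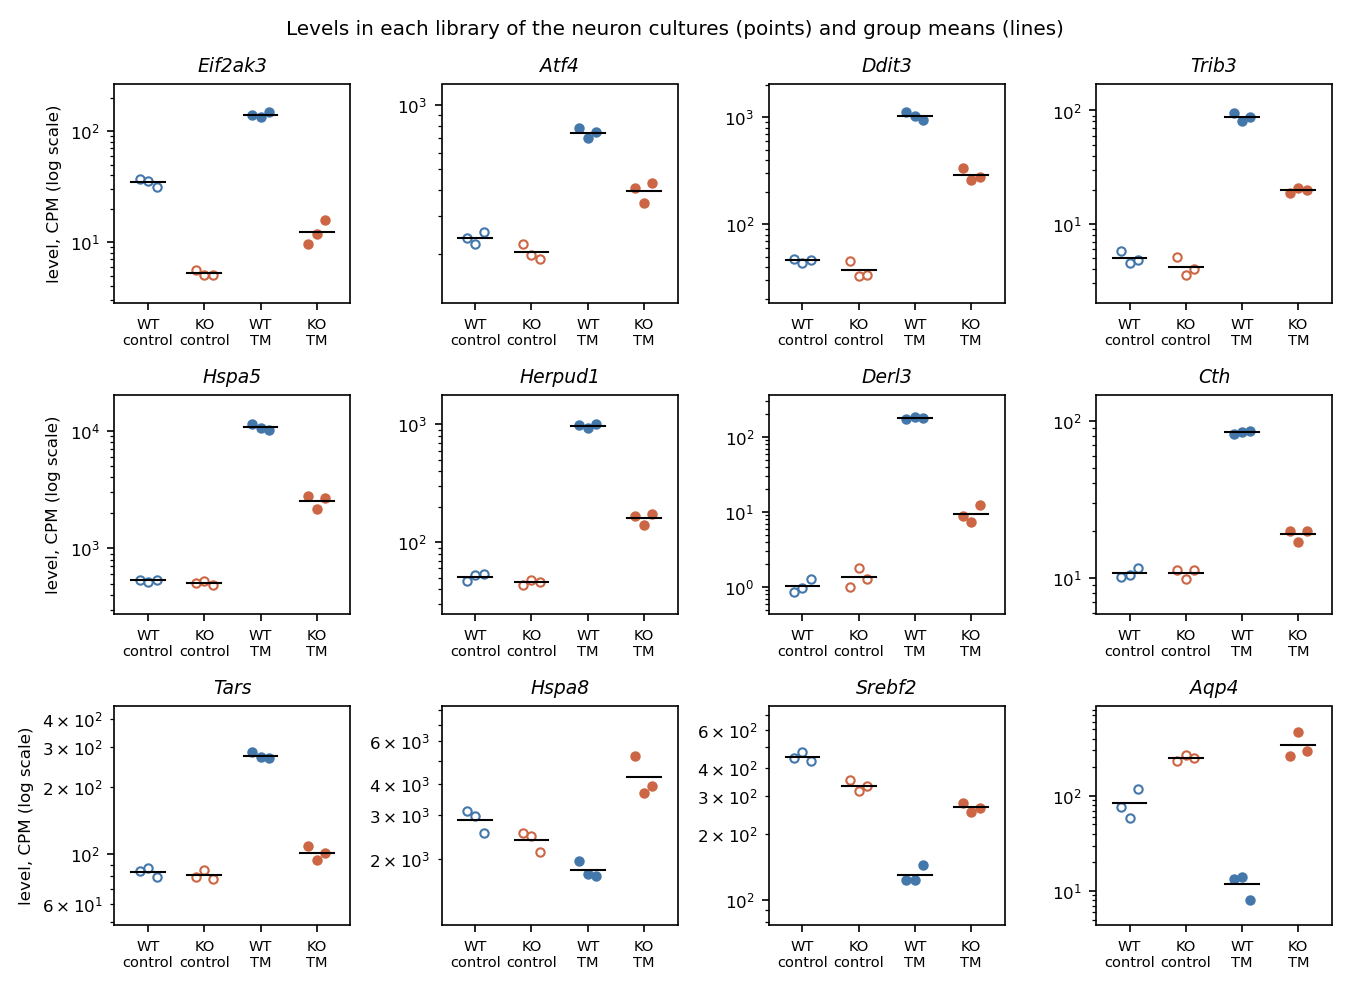
Level in CPM (log scale) of 12 genes in every neuron library, with points for libraries and lines for group means, open for control and filled for TM. Eif2ak3, Atf4, Ddit3, Trib3, Hspa5, Herpud1, Derl3, Cth and Tars are lower in Perk KO than in WT with TM, and Hspa8, Srebf2 and Aqp4 are higher, without overlap of the libraries.

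The next question is whether genes of the IRE1 and ATF6 branches held their level without Perk. ER chaperones and their cochaperones were lower in 8 of 13 and higher in 3, with a median of -0.82, and their summed level was 18059 to 19945 CPM in WT against 4930 to 5561 CPM in Perk KO. Hspa5, the main chaperone BiP of the ER lumen, was at 11345, 10614 and 10224 CPM in WT against 2772, 2160 and 2649 CPM in Perk KO. The difference was 4.06-fold (-2.02 ± 0.17, adjusted p = 8.82e-05), and the Perk KO libraries still stood above the control means of 531 CPM in WT against 507 CPM in Perk KO. Hsp90b1, which encodes GRP94, was at 3719, 4149 and 3019 CPM against 983, 1149 and 1144 CPM (-1.67 ± 0.15, adjusted p = 0.000124). Hyou1, a nucleotide exchange factor of BiP, was at 1853, 1841 and 1989 CPM against 292, 313 and 355 CPM (-2.51 ± 0.13). Sdf2l1, a BiP cofactor, was lower by a log2 difference of -2.61 ± 0.17, and the cochaperone Dnajc3 by -1.75 ± 0.14. No library of these genes overlapped between genotypes. Sdf2 (0.73 ± 0.14), Sil1 (0.69 ± 0.19) and Dnajc1 (0.43 ± 0.13) were the members called higher. Sil1 lost its call without WT replicate 2 (adjusted p = 0.0747) or 3 (0.0581), and Dnajc1 without WT replicate 1 (0.0859), 2 (0.0977) or 3 (0.0717).

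Other enzymes of ER folding and quality control were lower in most of their groups. Of 22 disulfide isomerases and oxidases, 13 were lower and 3 higher (median -0.52), with 7 higher when the replicate number was a block and 5 without Perk KO replicate 1. Pdia4, a disulfide isomerase, was at 2554, 2552 and 2609 CPM in WT against 366, 271 and 329 CPM in Perk KO (-2.93 ± 0.16, adjusted p = 1.86e-05), and Creld2 was at 716, 657 and 674 CPM against 78.4, 61.5 and 79.9 CPM (-3.16 ± 0.14, adjusted p = 1.8e-05). Both sets of libraries were far apart. The oxidase Ero1l (-1.92 ± 0.09) was lower, and the ER peroxidase Gpx8 was among the exceptions, at 11.3, 14.5 and 11.1 CPM in WT against 83.4, 51.9 and 64.1 CPM in Perk KO (2.50 ± 0.21). In the calnexin cycle, which holds glycoproteins until they fold, 8 of 11 genes were lower and 0 higher (median -0.50), led by the lectin chaperone Calr (-1.74 ± 0.16) and the folding sensor Uggt1 (-1.01 ± 0.09). Prolyl isomerases were split, with 4 of 11 higher and 4 lower, and Fkbp11 (-1.87 ± 0.19) and Fkbp9 (1.04 ± 0.15) had opposite signs.

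Genes of ER-associated degradation, which passes misfolded proteins back to the cytosol, were lower in 14 of 26 and higher in 0 (median -0.41). Derl3, a membrane subunit of that pathway, had the largest fall of all protein-coding genes called without overlap and averaging 100 counts or more. It was at 176, 182 and 180 CPM in WT against 8.82, 7.35 and 12.4 CPM in Perk KO, an 18-fold difference (-4.17 ± 0.19, adjusted p = 1.8e-05), with control means of 1.03 and 1.35 CPM. Herpud1 was at 979, 937 and 1002 CPM against 168, 141 and 174 CPM (-2.53 ± 0.13, adjusted p = 1.8e-05), and Sel1l, the scaffold of the HRD1 ligase, was lower by -2.10 ± 0.11 on the log2 scale. Of 36 genes of transport between ER and Golgi, 21 were lower and 1 higher (median -0.48), with 2 higher when the replicate number was a block. Sec24d (-1.03 ± 0.09) and Sec31a (-0.96 ± 0.09), coat proteins of vesicles that leave the ER, were among them. The gene called higher, Sar1b (0.45 ± 0.15, adjusted p = 0.047), had overlapping libraries and lost its call with the GC correction (0.162) and without WT replicate 2 (0.14) or 3 (0.148) or Perk KO replicate 1 (0.0836) or 3 (0.123). ER calcium channels, pumps and binding proteins were split, with 5 of 21 higher and 6 lower (median 0.12), against 20.7% and 19.4% of all genes. Only 2 were higher without WT replicate 1 or 2 or Perk KO replicate 3, and 3 without WT replicate 3. Atp2a2, the pump that loads calcium into the ER, was at 1944, 2011 and 2157 CPM in WT against 677, 768 and 747 CPM in Perk KO (-1.42 ± 0.12).

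The sensors themselves were lower in part. Of 10 sensors and their transcription factors other than Perk, 4 were lower and 0 higher. Atf6 was at 311, 343 and 333 CPM in WT against 99.2, 121 and 111 CPM in Perk KO (-1.52 ± 0.10, adjusted p = 3.6e-05). Ern1, which encodes IRE1, was at 28.3, 30.7 and 32.3 CPM against 11.6, 17 and 16.7 CPM (-0.96 ± 0.16), and Xbp1 at 291, 271 and 287 CPM against 147, 119 and 141 CPM (48% of the WT mean, adjusted p = 0.000354). The libraries did not overlap in these 3 genes, and counts per gene do not separate spliced from unspliced Xbp1. Dnajb9, a target of XBP1, was lower by -0.82 ± 0.12. Of 8 transcripts reported to be cut by IRE1, 7 were higher and 0 lower (median 0.98), but only 4 without WT replicate 1 or WT replicate 2. Pmp22 was at 17.5, 12.7 and 18.2 CPM in WT against 128, 76.1 and 93.5 CPM in Perk KO (2.69 ± 0.23), and Scara3 gave 2.13 ± 0.24. Some members of this list, Pdgfrb among them, are also expressed by the non-neuronal cells whose markers were higher. Of 15 genes of other eIF2 kinases, eIF2 and eIF2B subunits and eIF2 phosphatase subunits, 8 were lower and 1 higher (median -0.42). With the replicate number as a block, 2 were higher. The count of lower genes was 4, 5 or 5 without WT replicate 1, 2 or 3, and 3 without Perk KO replicate 3. The gene called higher, the kinase Eif2ak2 (PKR), which senses double-stranded RNA, was at 4.07, 3.35 and 3.63 CPM in WT against 11.8, 29.2 and 14 CPM in Perk KO (2.36 ± 0.34, adjusted p = 0.000914).

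To show what stands before the start of the genes that fell most, RefSeq promoter windows of GRCm38.p6 (250 bases before to 50 after each start) were searched on both strands for the ER stress response element, CCAAT and CCACG with any 9 bases between them, which is known as a binding site of ATF6 with the factor NF-Y. Of 16026 tested genes, 11493 had a window matched by symbol. The 4 genes below are those of the fixed and largest-fall genes whose window held a match. The 250 bases before the RefSeq start are printed 5′ to 3′ in the direction of the gene, with capitals for the fixed letters of each match (on the opposite strand these read CGTGG and ATTGG). They lie at chr10:75893148-75893397 and chr15:88819396-88819645 on the plus strand, chr2:34771840-34772089 on the plus strand and chr10:86705445-86705694 on the minus strand.
Derl3: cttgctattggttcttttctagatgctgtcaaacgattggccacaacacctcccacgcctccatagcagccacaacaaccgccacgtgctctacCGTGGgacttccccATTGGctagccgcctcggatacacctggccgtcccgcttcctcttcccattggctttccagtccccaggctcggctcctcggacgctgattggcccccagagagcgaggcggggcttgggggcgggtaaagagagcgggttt
Creld2: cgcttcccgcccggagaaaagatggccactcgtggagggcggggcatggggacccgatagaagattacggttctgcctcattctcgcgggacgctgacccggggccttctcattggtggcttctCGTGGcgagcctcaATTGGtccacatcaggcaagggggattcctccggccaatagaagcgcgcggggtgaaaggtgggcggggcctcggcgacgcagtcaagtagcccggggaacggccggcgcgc
Hspa5: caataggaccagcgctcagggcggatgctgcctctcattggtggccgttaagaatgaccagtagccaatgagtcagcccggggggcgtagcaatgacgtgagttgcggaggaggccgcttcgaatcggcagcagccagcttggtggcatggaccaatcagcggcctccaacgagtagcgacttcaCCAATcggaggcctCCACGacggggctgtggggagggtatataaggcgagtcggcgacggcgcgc
Hsp90b1: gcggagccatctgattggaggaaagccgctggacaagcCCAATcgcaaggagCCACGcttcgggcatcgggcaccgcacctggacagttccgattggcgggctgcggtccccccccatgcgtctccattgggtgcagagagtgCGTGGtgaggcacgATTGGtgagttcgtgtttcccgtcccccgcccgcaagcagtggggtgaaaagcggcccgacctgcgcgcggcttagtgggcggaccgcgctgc
The match began 156 bases before the start in Derl3 and 126 in Creld2, both in reverse orientation, and 65 bases before it in Hspa5, in forward orientation. Hsp90b1 held 2 matches, 212 bases (forward) and 107 bases (reverse) before the start. The log2 differences of these genes were -4.17 ± 0.19, -3.16 ± 0.14, -2.02 ± 0.17 and -1.67 ± 0.15.

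Such windows were rare. A match was held by 11 of 2387 genes called lower (0.461%), 1 of 2452 called higher (0.0408%), 7 of 6654 not called (0.105%) and 37 of all 27025 genes with a window (0.137%). Among 525 genes lower by over 2-fold, the count was 10 (1.9%). Besides the 4 printed, the lower genes with a match were Zfp57 (-1.78), the ERAD ligase gene Syvn1 (-1.76), Dnajc3 (-1.75), Calr (-1.74), the glycosyltransferase Alg12 (-1.39), the disulfide isomerase Pdia6 (-1.23) and Xlr3b (-0.84), which lost its call without WT replicate 2. The higher gene was Acacb (1.44 ± 0.32), and Canx, which encodes calnexin, also held a match and differed by 0.09 ± 0.13 (adjusted p = 0.608). Zfp57, Syvn1, Pdia6, Xlr3b, Acacb and Canx were chosen after their values were seen. The letters TGATGNAAT, the core of sites for C/EBP and ATF factors, were in 21 genes called lower (0.88%), 13 called higher (0.53%), 31 not called (0.466%) and 293 of all genes (1.08%). TGACGTCA, the cAMP response element, was in 84 lower (3.52%), 65 higher (2.65%), 253 not called (3.8%) and 549 of all genes (2.03%). None of these shares was tested, and a match is a description of letters, not evidence of binding.

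**Figure D3:**
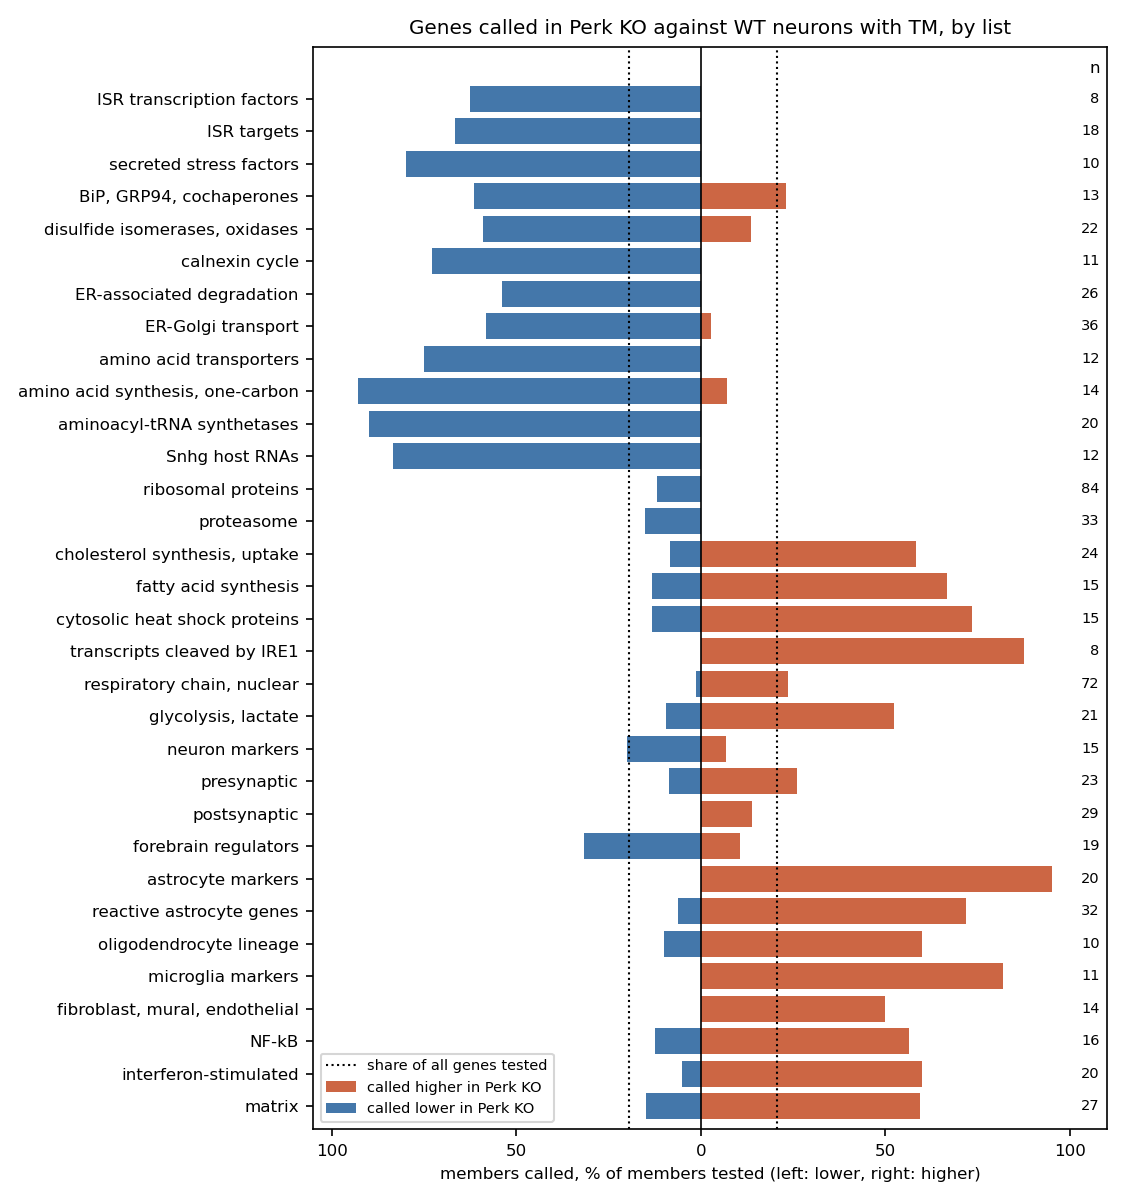
Share of the tested members of each gene list (rows, number tested at the right) called lower (left) or higher (right) in Perk KO against WT neurons with TM, in percent. Dotted lines mark the shares over all genes, 19.4% lower and 20.7% higher.

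Lipid genes moved the other way, together with the astrocyte markers. Of 24 genes of cholesterol synthesis and uptake, 14 were higher and 2 lower in Perk KO with TM (median 0.50), with 4 lower in the fit over 12 libraries. Their summed level was 1594 to 1653 CPM in WT against 1977 to 2258 CPM in Perk KO, both below the 4933 to 5121 CPM of WT control cultures. Srebf2, the transcription factor of this pathway, was at 124, 124 and 145 CPM in WT against 279, 252 and 264 CPM in Perk KO (1.08 ± 0.11). Its libraries did not overlap. Mvd, an enzyme of the mevalonate pathway, was an exception, at 64.8, 63.8 and 61.8 CPM in WT against 17.5, 14.5 and 21.5 CPM in Perk KO (-1.77 ± 0.16, adjusted p = 0.000107), as was Lss (-0.67 ± 0.11), which closes the sterol ring. Of 15 genes of fatty acid synthesis, 10 were higher and 2 lower (median 0.73). Thrsp, a regulator of lipogenesis, was at 3.39, 3.9 and 3.04 CPM in WT against 54, 42.5 and 37.7 CPM in Perk KO (3.76 ± 0.20), and the desaturase Scd2 (1.44 ± 0.16), the elongase Elovl5 (1.41 ± 0.13) and Acsl3 (1.27 ± 0.10) were higher. Acaca, which makes the malonyl units, was lower (-0.51 ± 0.10). Fasn was also lower (-0.41 ± 0.11, adjusted p = 0.0218) but not without WT replicate 2 (0.0661), WT replicate 3 (0.0748) or Perk KO replicate 3 (0.0612). How far the change in astrocyte markers enters these values was not tested.

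Cytosolic heat shock proteins, which fold proteins outside the ER, were higher in 11 of 15 and lower in 2 (median 0.91), and their summed level was 5311 to 6172 CPM in WT against 8823 to 11022 CPM in Perk KO. Hspa8, the constitutive HSC70, was at 1950, 1729 and 1706 CPM in WT against 5224, 3705 and 3942 CPM in Perk KO. Perk KO replicate 1 stood above the other two, and all 3 lay above the WT libraries (1.32 ± 0.18, adjusted p = 0.000679) and above the control means of 2881 and 2384 CPM. The small heat shock gene Hspb1 was at 2.94, 4.07 and 4.27 CPM against 30, 21.4 and 26 CPM (2.84 ± 0.22), and Cryab gave 2.20 ± 0.23. Hspa1b was higher by 0.91 ± 0.12, although its reads can be shared with its near-identical copy. Hsf1, the transcription factor of these genes, was lower, at 32.8, 31.6 and 33.3 CPM in WT against 19, 21.4 and 22.4 CPM in Perk KO (-0.58 ± 0.12, adjusted p = 0.00521). Hspa4 was called lower as well (-0.36 ± 0.11, adjusted p = 0.0297) and lost its call without WT replicate 1 (0.0768), 2 (0.1) or 3 (0.0554) and without Perk KO replicate 2 (0.0522) or 3 (0.0981). Hspb1 and Cryab are also expressed by astrocytes, and the part of the marker shift in their values was not tested. In mitochondria the direction differed. Of 13 mitochondrial chaperones and proteases, 6 were lower and 0 higher (median -0.29), led by Dnaja3 (-1.28 ± 0.09), the protease Lonp1 (-0.97 ± 0.10) and Hspa9 (-0.84 ± 0.11).

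Energy and redox genes were mixed. In glycolysis and lactate handling, 11 of 21 genes were higher and 2 lower (median 0.41). Ldhb, a lactate dehydrogenase subunit, was at 216, 213 and 230 CPM in WT against 860, 600 and 742 CPM in Perk KO (1.80 ± 0.15), and the lactate carrier Slc16a1 gave 1.18 ± 0.11. The lower genes counted were Hk2, a hexokinase, and Pfkfb3, which activates glycolysis (-1.27 ± 0.13). Hk2 was at 55.8, 58.7 and 70.5 CPM against 8.43, 8.85 and 10.8 CPM (-2.66 ± 0.16, adjusted p = 2.27e-05). An entry of the glycolysis gene Aldoa, left out of this count, was lower as well (log2 difference -2.79) and among the 12 largest falls. The count itself held no Aldoa entry among its lower genes, so this value does not stand for the gene as a whole. Of 17 NRF2 target genes, 6 were higher and 5 lower (median 0.12). Hmox1, the heme oxygenase, was at 1502, 1520 and 1655 CPM in WT against 329, 244 and 280 CPM in Perk KO (-2.39 ± 0.15, adjusted p = 2.86e-05), with control means of 165 and 181 CPM. Gstm1, a glutathione transferase, went the other way, at 289, 245 and 283 CPM against 1937, 1432 and 1462 CPM (2.63 ± 0.17, adjusted p = 2.86e-05). No library overlapped in either gene. The redox enzyme Txnrd1 was lower (47.7% of the WT mean) and Gsta4 higher (2.50 ± 0.24). Reads of the Gstm genes may be split among near-identical copies, and Gstm1 and Ldhb were higher alongside the astrocyte markers, whose part was not tested.

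Inflammatory genes were higher in several groups, again beside higher glial markers. Reactive astrocyte genes were higher in 23 of 32 and lower in 2 (median 1.36), with summed levels of 2063 to 2206 CPM in WT against 3541 to 5064 CPM in Perk KO. Steap4, a metalloreductase, was at 2.32, 2.09 and 1.12 CPM in WT against 74.4, 66.3 and 55.7 CPM in Perk KO (5.21 ± 0.26, adjusted p = 1.8e-05). S1pr3, a sphingosine phosphate receptor (3.16 ± 0.19), and Serpina3n, a protease inhibitor (2.40 ± 0.16), were higher too. Against them, Ptgs2, the inducible cyclooxygenase (-2.45 ± 0.23), and the pentraxin Ptx3 (-1.96 ± 0.18) were lower. Of 16 genes of the NF-κB pathway, 9 were higher and 2 lower (median 0.96), with 0 lower without WT replicate 1 or 2 and 1 lower without WT replicate 3 or Perk KO replicate 2 or 3. The receptor Tlr2 was at 6.11, 4.84 and 6.62 CPM in WT against 99.8, 52.8 and 59.6 CPM in Perk KO (3.66 ± 0.28), and Nfkbia, the inhibitor that NF-κB itself induces, was at 24.8, 24 and 21.4 CPM against 91.8, 58.2 and 73.9 CPM (1.74 ± 0.18). In both genes Perk KO replicate 1 was the highest and no library overlapped. Cytokines were split: 10 of 19 were higher and 2 lower. Ccl2, which attracts monocytes, was higher (2.09 ± 0.22), whereas the neutrophil chemokines Cxcl1 (-1.04 ± 0.16) and Cxcl2 (-2.61 ± 0.31) were lower. Stat3, a transcription factor of the JAK-STAT pathway, was at 103, 110 and 124 CPM in WT against 205, 227 and 224 CPM in Perk KO (1.02 ± 0.10). The part of the glial markers in these values was not tested.

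Interferon-stimulated genes were higher in 12 of 20 and lower in 1 (median 1.02), with summed levels of 133 to 140 CPM in WT against 252 to 299 CPM in Perk KO. Ifit3, an antiviral RNA-binding protein, was at 8.2, 9.12 and 9.18 CPM in WT against 48.4, 36 and 41.1 CPM in Perk KO (2.31 ± 0.16, adjusted p = 4.24e-05). The guanylate-binding gene Gbp3 was at 4.3, 3.35 and 2.62 CPM against 17.1, 16.1 and 17.5 CPM (2.37 ± 0.20, adjusted p = 9e-05), and Rsad2, which encodes viperin, at 1.13, 2.8 and 1.66 CPM against 10.8, 9.63 and 12.3 CPM (2.61 ± 0.31). Each Perk KO library exceeded each WT library in these 3 genes. In control cultures Gbp3 was at 11.8 CPM in WT against 23.5 CPM in Perk KO, and Rsad2 at 4.9 and 6.86 CPM, so that WT neurons with TM were the lowest of the 4 groups for both. Members of the Ifit and Gbp families share sequence, and their counts are uncertain to that extent. The gene called lower, Ifi44 (-0.95 ± 0.25), was not called in the fit over 12 libraries (adjusted p = 0.0597) or without WT replicate 1 (0.0695) or 2 (0.0559).

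Counts for pan-neuronal and postsynaptic genes were near or below the background of 20.7% higher and 19.4% lower, and are given as a description. Of 15 pan-neuronal markers, 1 was higher and 3 were lower, and of 29 postsynaptic genes 4 were higher and 0 lower. With the replicate number as a block, 8 postsynaptic genes were higher, but 1 without WT replicate 1 or 3 and 2 without Perk KO replicate 2. The neuronal marker called higher, Snap25 of synaptic vesicle fusion (0.30 ± 0.10, adjusted p = 0.0361), lost its call with the GC correction, where its difference was 0.03 (adjusted p = 0.909), and with no filter (0.107) or in the fit over 12 libraries (0.0567). It also lost it without WT replicate 1 (0.0804), 2 (0.0956) or 3 (0.133) or Perk KO replicate 3 (0.0902), and 2 markers were higher without Perk KO replicate 2. Grin1, a subunit of NMDA receptors, was at 111, 111 and 137 CPM in WT against 178, 180 and 196 CPM in Perk KO (0.69 ± 0.12, adjusted p = 0.00226), and Slc32a1, the vesicular carrier of inhibitory transmitters, was at 105, 107 and 114 CPM against 166, 159 and 206 CPM (0.77 ± 0.12). Of 23 presynaptic genes, 6 were higher and 2 lower (median 0.12), with 2, 2 or 3 higher without WT replicate 1, 2 or 3. Of 36 channel genes, 6 were higher and 5 lower (median 0.15). With the replicate number as a block, 10 channel genes were higher, but 2 without WT replicate 1 or 2. The channel gene Kcng1 was lower (-1.75 ± 0.20). Of 19 regulators of forebrain neurons, 6 were lower and 2 higher (median -0.32), with 4 higher without Perk KO replicate 1. Tbr1, a transcription factor of cortical glutamatergic neurons, was at 55.2, 56.7 and 61.1 CPM in WT against 18.7, 16.1 and 21.7 CPM in Perk KO (-1.55 ± 0.14, adjusted p = 0.000125). Bcl11a (-1.19 ± 0.13) and Neurod2 (-1.01 ± 0.11) were lower as well, while Fezf2 (1.89 ± 0.23) and Dlx1, a factor of inhibitory neurons (0.56 ± 0.12), were higher. None of these genes had overlapping libraries.

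Immediate early genes, which neurons switch on with activity or stress, were higher in 6 of 17 and lower in 3 (median 0.29). Jun was at 96.3, 90 and 103 CPM in WT against 238, 216 and 252 CPM in Perk KO (1.35 ± 0.11, adjusted p = 7.22e-05). Npas4, an activity-dependent transcription factor of neurons, was at 1.41, 1.98 and 2.19 CPM against 11.4, 14.8 and 18.7 CPM (3.06 ± 0.26, adjusted p = 8.69e-05). The control means of Npas4 were 16.4 CPM in WT against 8.36 CPM in Perk KO, so that the WT level with TM was the lowest of the 4 groups. Dusp1, a phosphatase of MAP kinases (1.34 ± 0.16), and Btg2 (1.10 ± 0.12) were higher, and Ier2 (48.1% of the WT mean) and Egr3 (-0.71 ± 0.13) lower. Egr1 was called lower too (-0.53 ± 0.14, adjusted p = 0.0186) but not without WT replicate 1 (0.0772) or 3 (0.0687). Cell death genes (BCL2 family, caspases and death receptor) were called less often than the 20.7% higher and 19.4% lower of all genes. Of 21 tested, 3 were higher and 2 lower (median 0.10), with 1 lower without WT replicate 1, 2 or 3 or Perk KO replicate 3. Casp12, a caspase tied to the ER, was at 1.13, 1.32 and 1.01 CPM in WT against 8.9, 11.2 and 7.67 CPM in Perk KO (3.05 ± 0.24). The BH3 genes split, with Bcl2l11 higher (1.13 ± 0.17) and Hrk lower (-0.74 ± 0.09).

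Linker histone genes and the extracellular matrix also differed. Of 6 linker histone genes tested, 4 were lower and 0 higher (median -1.06). Hist1h1d was at 25.7, 19.6 and 19.7 CPM in WT against 1.1, 1.28 and 2.36 CPM in Perk KO (-3.72 ± 0.29, adjusted p = 6.31e-05), Hist1h1c gave -1.25 ± 0.14 and H1f0 -1.12 ± 0.10. WT and Perk KO libraries stood apart in all 3. Histone genes have similar copies, which makes the count of Hist1h1d less certain. Of 27 matrix genes, 16 were higher and 4 lower (median 0.83). Mmp3, a metalloproteinase, was at 0.396, 0.495 and 0.801 CPM in WT against 17.3, 15.2 and 23.2 CPM in Perk KO (5.08 ± 0.31), and Timp4 gave 2.55 ± 0.26. The lower genes were the adhesion proteins Tnc (-2.22 ± 0.16) and Fn1, at 206, 264 and 406 CPM against 59.3, 104 and 75.4 CPM (-1.83 ± 0.27), with Mmp9 (-1.54 ± 0.22) and Col5a1 (-0.76 ± 0.17). The higher matrix genes moved with the astrocyte and mesenchymal markers, whose part was not tested.

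The largest differences outside these groups were as follows. Among protein-coding genes called without overlap and averaging 100 counts or more, the 12 largest falls ran from -4.17 (Derl3) to -2.66 (Hk2). Tes, a protein of focal adhesions, was at 99, 96.7 and 93.8 CPM in WT against 8.07, 7.29 and 8.25 CPM in Perk KO (-3.55 ± 0.12, adjusted p = 1.06e-05). Its 3 WT libraries stayed close together, as did its Perk KO libraries. Cdsn (-3.33 ± 0.22), Tmem154 (-3.27 ± 0.26), the peroxisomal oxidase Acox2 (-3.25 ± 0.19) and the metalloreductase Steap1 (-3.16 ± 0.30) came next. Steap1 thus fell where its relative Steap4 rose. The 12 largest rises ran from 5.88 to 3.98. Dio2, which activates thyroid hormone and is made by astrocytes in brain, was highest in log2 terms (5.88 ± 0.54), at 0.17, 0.55 and 0.587 CPM in WT against 13.2, 40.9 and 22.4 CPM in Perk KO. Ecm2 (5.05 ± 0.38), Glycam1 (4.81 ± 0.31), Fgl2 (4.69 ± 0.36), Cldn10 (4.41 ± 0.28), Rab7b (4.20 ± 0.27), Ndp (3.99 ± 0.30) and the mitochondrial glutamate carrier Slc25a18 (3.98 ± 0.17) were also among them. Apart from Aqp4, which is described above, each of the 12 was at 5.29 CPM or less in every WT library.

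To see which differences belong to stressed cells, the same genotypes were compared without TM, with no library in common. Of 15757 genes tested there, 3370 (21.4%) were called, 1927 higher (12.2%) and 1443 lower (9.16%). This count was unstable: it was 695, 1710 or 5414 without WT control replicate 1, 2 or 3, and 1821, 589 or 257 without Perk KO control replicate 1, 2 or 3. Genes called in both comparisons numbered 1327, of which 1110 had the same direction. They were 21.3% of the 6244 calls with TM that were tested in both and 40% of the 3314 such calls without TM. Both are near the shares of all genes called, 21.4% without TM and 40.1% with TM, so the overlap shows no excess when direction is ignored. The direction itself was mostly shared, in 1110 of the 1327 genes. The difference between the Perk effects with and without TM was tested as an interaction over 12 libraries. Of 15939 genes, 4753 (29.8%) were called, 2304 toward higher (14.5%) and 2449 toward lower (15.4%) with TM. The split depended on the scaling. With DESeq2's size factors, which moved the median of all genes in this test by 0.07, 2581 were toward higher and 2039 toward lower. Across genes, the log2 differences without TM correlated with transcript GC content (Spearman rho -0.44), more than those with TM (-0.09). The interaction was not run with a GC correction, and the part of this trend in its calls was not tested.

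By that test the Perk effect was more negative with TM in 6 of 8 transcription factors and 15 of 18 targets of the integrated stress response, in 11 of 14 amino acid synthesis genes, 15 of 20 tRNA synthetases, 10 of 12 small nucleolar RNA host genes, 8 of 13 ER chaperones and 14 of 26 degradation genes. With DESeq2's size factors the counts were 13 targets, 10 amino acid synthesis genes, 13 tRNA synthetases and 10 degradation genes, and the others were unchanged. For Hspa5 the log2 difference was -0.08 without TM (control levels 531 and 507 CPM) and -2.02 with it. Ddit3 was at -0.31 and -1.77, Herpud1 at -0.17 and -2.53, and Atf4 at -0.24 and -0.85 in the same order. Hsp90b1 had opposite signs, 0.74 without TM (adjusted p = 0.0123) and -1.67 with it. The test went toward higher with TM in 19 of 24 cholesterol genes, 11 of 15 fatty acid genes, 9 of 15 heat shock genes, 10 of 17 immediate early genes and 17 of 19 astrocyte markers. With DESeq2's size factors these became 12 fatty acid genes and 18 astrocyte markers, with the others unchanged. The cholesterol list had a median of -0.59 without TM and 0.50 with it. Aqp4 was higher in Perk KO in both settings, by 1.56 without TM (adjusted p = 0.00717) and 4.91 with it.

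**Figure D4:**
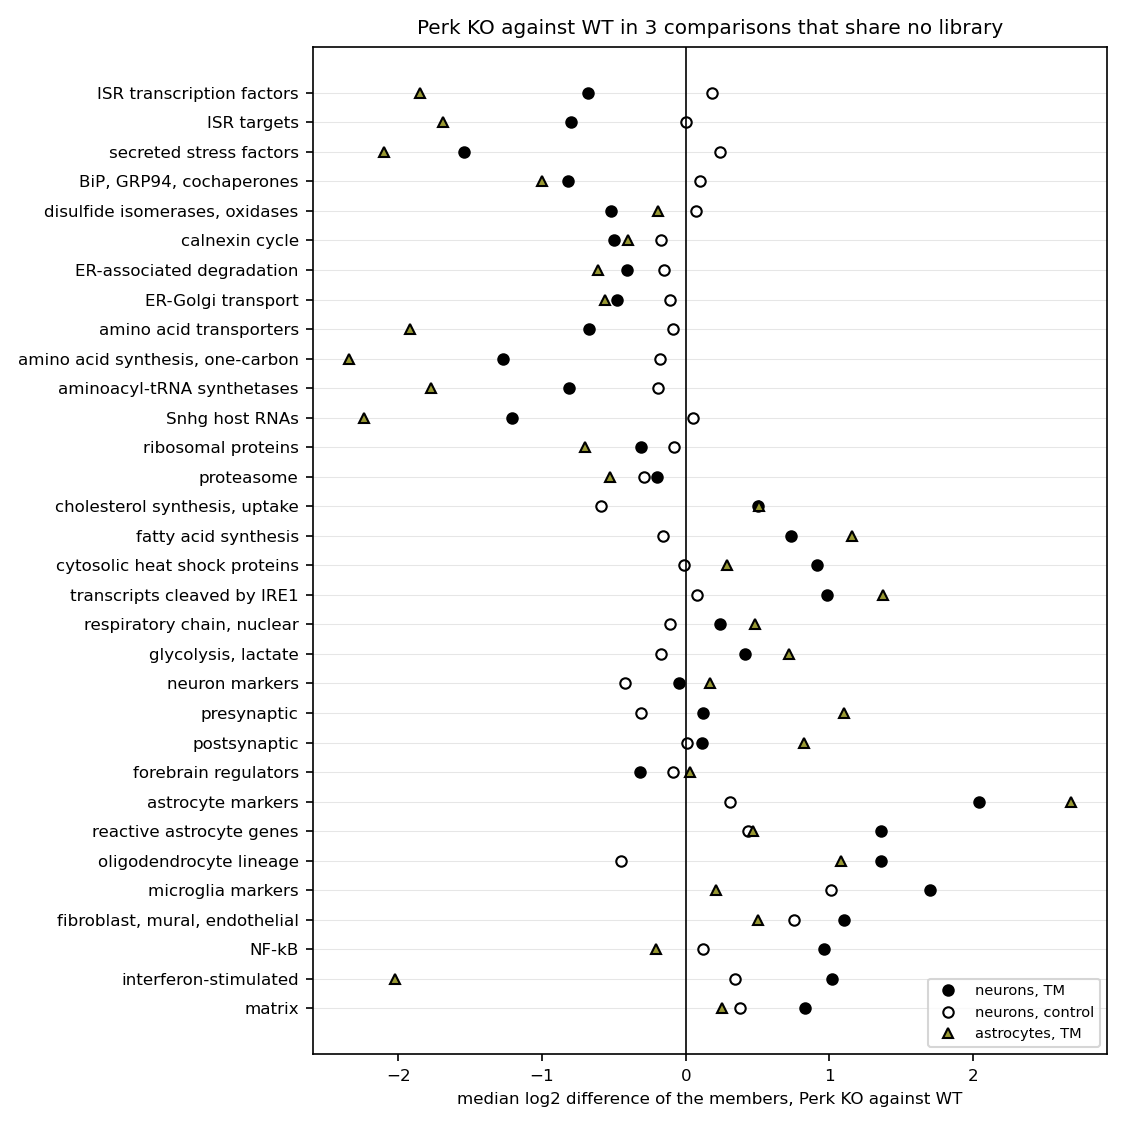
Median log2 difference of Perk KO against WT over the tested members of each gene list (rows) in neurons with TM (filled circles), control neurons (open circles) and astrocytes with TM (triangles). The lists of integrated stress response factors and targets, amino acid supply and tRNA synthetases lie left of 0 with TM in both cell types, and the interferon list is at 1.02 in neurons and -2.02 in astrocytes.

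The most similar comparison in the other cell type was Perk KO against WT astrocytes with TM, which shares no library with the neurons. There 9456 of 14927 genes (63.3%) were called, 4797 higher (32.1%) and 4659 lower (31.2%). Genes called in both numbered 4748, of which 4495 had the same direction. They were 79.9% of the 5943 neuron calls tested in both and 51.5% of the 9219 astrocyte calls. The test of the difference between the cell types called 4127 of 15872 genes (26%), 2105 toward higher (13.3%) and 2022 toward lower (12.7%) in neurons, so that 51% of calls were toward higher. That share was 41.8% with DESeq2's size factors, 29.2% with total counts alone and 35.6% without Perk KO astrocyte replicate 2. Total counts moved the median of all genes in this test by -0.18 and that of the astrocyte comparison by 0.11. Neuronal genes differed by genotype in the astrocyte cultures too. There 11 of 16 presynaptic genes were higher (0 lower), 14 of 23 postsynaptic (2 lower) and 16 of 25 channel genes (4 lower). Of 10 pan-neuronal markers, 3 were higher and 3 lower. The part of such transcripts in the differences between cell types was not tested.

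Genes of amino acid supply fell less in neurons than in astrocytes. The medians of amino acid synthesis were -1.27 in neurons and -2.34 in astrocytes, with 11 of 14 genes called for the difference, and those of tRNA synthetases -0.81 and -1.77, with 16 of 20 called. Transporters gave 9 of 12. Atf4 was at -0.85 in neurons and -2.22 ± 0.20 in astrocytes, and Asns at -0.92 and -2.36 ± 0.21, and both differences passed the test. Hspa5 was at -2.02 in neurons and -1.57 ± 0.16 in astrocytes, which did not (log2 difference -0.39 ± 0.21, adjusted p = 0.188). Derl3 fell more in neurons, with -4.17 against -2.83 ± 0.27.

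Interferon-stimulated and linker histone genes differed between the cell types in size and, for some members, in sign. Of 20 interferon-stimulated genes, 16 were lower and 1 was higher in Perk KO astrocytes with TM (median -2.02), against 12 higher and 1 lower in neurons, and the difference was called in 19 of 20, with 16 to 20 over the alternatives. Gbp3 was at 2.37 in neurons and -2.24 ± 0.52 in astrocytes, Oasl2 at 2.40 and -2.04 ± 0.46, and Rsad2 at 2.61 and -2.78 ± 0.50. Rsad2 levels in astrocytes with TM were 66.2, 248 and 278 CPM in WT against 19.3, 38.6 and 27.3 CPM in Perk KO. In the linker histones 4 of 6 differed, all toward lower in neurons. Hist1h1d was at -3.72 in neurons and 1.52 ± 0.37 in astrocytes (adjusted p = 0.00711), and H1f0 at -1.12 and -0.04 ± 0.09 (adjusted p = 0.729). Mean levels in astrocytes were 1.31 CPM in WT against 3.72 CPM in Perk KO for Hist1h1d.

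**Figure D5:**
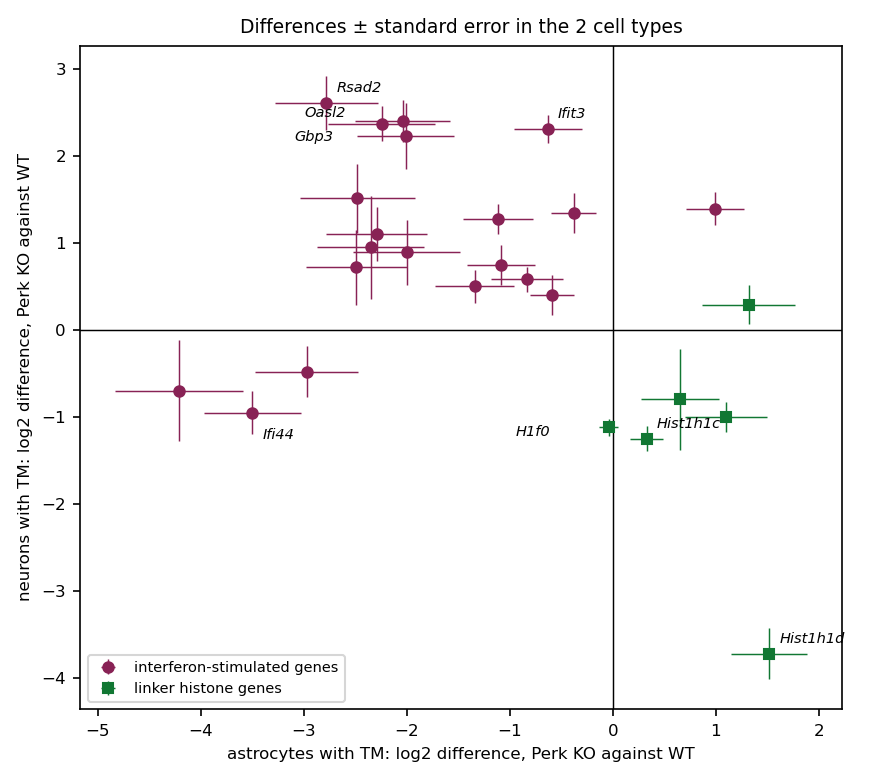
Log2 difference of Perk KO against WT with TM in astrocytes (horizontal) and neurons (vertical), with bars for standard errors, for interferon-stimulated genes (circles) and linker histone genes (squares). Most interferon-stimulated genes lie at upper left, higher in Perk KO neurons and lower in Perk KO astrocytes, and Hist1h1d lies at lower right.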

How the data were processed

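Per the submitters' processing notes, reads were handled with fastp, HISAT2, featureCounts and DESeq2 on GRCm38.p6, with no versions or settings named. RNA was total RNA, made into libraries with a kit that does not mark strand, so reads of overlapping antisense genes cannot be told apart. The deposited values used are raw counts per gene, 32728 genes in 8 tables, and 0 counts differed between tables that held the same library. The authors' deposited log2 fold changes and adjusted p-values were used only for their number of calls. Samples were grouped by title.

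Counts were fitted in edgeR 4.0.16 (R 4.3.3, limma 3.58.1) with TMM factors and the quasi-likelihood test over the libraries compared, after a filter on a mean of 10 counts, with Benjamini-Hochberg adjustment over all genes tested. The standard error is the log2 difference divided by the square root of F. The interactions were fitted over 12 libraries each. The fits were tested on simulated counts. Alternatives were DESeq2 1.42.0 and its size factors, total counts, no filter, a replicate block, a GC correction over 20 bins, a fit over 12 libraries and leaving out each library. The GC correction was not run for the interactions.

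The replicate numbers come from the titles, which do not say what they share. Deviations of same-numbered WT and Perk KO libraries with TM correlated at 0.13, 0.31 and 0.26 across genes, and those of different numbers at -0.26 to 0.09. Deviations from the mean of 3 libraries sum to 0, so these values are not independent. The reported differences, standard errors and p-values come from fits of genotype without a replicate block. Possible pairs were covered by an alternative fit. Counts with the replicate number as a block are given where they differ by over 1.5 times.

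Named genes were 20 fixed genes, the 12 largest rises and falls (mean of at least 100 counts, no overlap), the 4 largest of each direction among other biotypes, up to 4 called members per list by p-value with members called against the majority, and the 6 largest interactions in each direction. The comparison and its gene lists were chosen with earlier results of these data known. Some list members were not analysed here.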

Additional observations from a re-analysis of the deposited data

Results flagged for a closer look

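The Perk effect differed between TM-treated and control neurons in 4753 genes and, with TM, between neurons and astrocytes in 4127, by edgeR's interaction tests. Values are the difference between the effects on the log2 scale ± standard error. Chance alone leaves some false calls at an adjusted p of 0.05.

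Against control neurons, the effect was more negative with TM for the stress genes Eif2ak3 (-0.78 ± 0.22), Atf4 (-0.68 ± 0.14), Ddit3 (-1.53 ± 0.19), Trib3 (-1.90 ± 0.20), Chac1 (-1.49 ± 0.14), Asns (-0.68 ± 0.15), Xbp1 (-0.68 ± 0.15) and Dnajb9 (-1.49 ± 0.17). It was also more negative for the ER folding and degradation genes Hspa5 (-2.02 ± 0.15), Hsp90b1 (-2.47 ± 0.22), Herpud1 (-2.43 ± 0.13), Sdf2l1 (-2.61 ± 0.22), Derl3 (-4.61 ± 0.35) and Creld2 (-3.40 ± 0.18). The largest of the other differences in that direction were Hist1h1d (-4.69 ± 0.41), Tes (-3.99 ± 0.16), Acox2 (-3.89 ± 0.38), Steap1 (-3.46 ± 0.39) and Fibin (-3.44 ± 0.38). The effect was more positive with TM for the astrocyte markers Aqp4 (3.29 ± 0.40), Slc1a3 (1.31 ± 0.13) and Gfap (1.24 ± 0.26), and for Ecm2 (4.22 ± 0.46), Fgl2 (3.97 ± 0.56), Rab7b (3.81 ± 0.31), Npas4 (3.96 ± 0.39) and Pdgfra (4.32 ± 0.41). Pdgfra, a receptor of oligodendrocyte precursors, was at 47.3 CPM in WT against 5.46 CPM in Perk KO control cultures, so that its value rests on the control side as well. Rbfox3 (-0.30 ± 0.10) lost its call under 14 alternatives, among them DESeq2 (adjusted p = 0.139). Rnf181 (4.44 ± 1.36) lost its call under 8, and its value was 1.98 without WT control replicate 1.

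Between cell types, the fall was smaller in neurons for Atf4 (1.44 ± 0.24), Asns (1.50 ± 0.25), Ddit3 (0.95 ± 0.28), Trib3 (0.72 ± 0.21), Chac1 (0.91 ± 0.29) and Dnajb9 (0.62 ± 0.17). The last 4 of these lost their calls with total counts (adjusted p = 0.057, 0.0836, 0.0843 and 0.0808) and without Perk KO astrocyte replicate 2 (0.076, 0.0691, 0.0547 and 0.0553). In all, Ddit3 lost its call under 4 alternatives, the others being without WT neuron replicate 3 (0.0605) and Perk KO neuron replicate 1 (0.0802). Trib3 lost it under 3, the other being without WT neuron replicate 2 (0.0588), and Dnajb9 under 3, the other being without Perk KO neuron replicate 3 (0.0503). Chac1 lost it under 10, among them DESeq2's size factors (0.0536) and leaving out each of WT neuron replicates 1, 2 and 3, Perk KO neuron replicates 1 and 3 and WT astrocyte replicates 2 and 3 (0.0637 to 0.0828). The fall was larger in neurons for Sdf2l1 (-0.90 ± 0.25) and Derl3 (-1.28 ± 0.35), and Sdf2l1 lost its call without WT neuron replicate 1 or Perk KO astrocyte replicate 3 (adjusted p = 0.0501 in both). Hist1h1d (-5.17 ± 0.48) had opposite signs, lower in Perk KO neurons (-3.72) and higher in Perk KO astrocytes (1.52). The difference was positive for Tubb3 (1.73 ± 0.25), Ifit3b (5.10 ± 0.69) and Rsad2 (5.45 ± 0.69). For Adra2c (-5.88 ± 0.37), Stum (-5.57 ± 0.60), St8sia1 (-5.13 ± 0.48), D130043K22Rik (-5.02 ± 0.62) and Camk2a (-4.94 ± 0.28) it was negative, mainly through higher values in Perk KO astrocytes, where Camk2a was at 2.78 CPM in WT against 87.6 CPM in Perk KO. Zbp1 (6.09 ± 1.33), Crhr1 (5.50 ± 0.90), Atp2b3 (5.35 ± 0.95) and Gm4951 (5.23 ± 1.07) were near 0 in a cell type, and their values depend on few counts.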

How the results depend on the processing

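The count of 6427 genes in neurons with TM kept within 1.5 times under every alternative run. It was 6468 with DESeq2's size factors, 6561 with total counts, 6565 with no filter, 6675 with DESeq2, 7502 with the replicate number as a block, 6886 with the GC correction, 7887 with both and 7630 in the fit over 12 libraries. Leaving out 1 library gave 4620 to 6977. Of 284 called genes among those eligible to be named, 1 lost its call with the block, 6 with the GC correction and 2 with DESeq2, up to 37 when a WT library was left out, and 0 reversed. The block moved no comparison's total by over 1.5 times, and the list counts it moved that far are given where the list is described. Without TM, leaving out 1 library gave 257 to 5414 genes in place of 3370, and the cause was not tested. With 3 libraries a group, small differences may be missed.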
